A study of Mus musculus with 16 samples.

Results

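Skeletal muscle releases signalling proteins into the blood and into its own tissue, and 8 genes that encode such factors were followed here: Fgf21, Gdf15, Fndc5, Il15, Apln, Metrnl, Vegfa and Bdnf. They were chosen by name as myokines and stress-secreted factors, by no cutoff on their measured values but with earlier results of these data known. Their probes were found through the RefSeq accession of each array probe. The array held 10 probes for the 8 genes, out of 55681 probes for 36799 genes or unnamed transcripts. Of the 8 genes, 7 had a probe that the scanner software called well above background on 4 or more arrays. They were tested among 28972 genes, and Fgf21 was not.

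Muscle RNA came from male mice aged 21 to 23 weeks in 4 groups of 4 biological replicates, with 1 one-colour Agilent array per replicate. CB1KO mice lack the cannabinoid receptor CB1, a G protein-coupled receptor for endocannabinoids encoded by Cnr1, in skeletal muscle: a floxed Cnr1 was crossed with a Cre driven by the ACTA1 promoter, which is active in muscle fibres, so other cells of the tissue keep the gene. WT mice were littermates. The groups were CB1KO_HFHS and WT_HFHS, fed a high fat-high sugar diet (49.2% of energy from fat, 32.2% from sugar), and CB1KO_SD and WT_SD, fed a standard diet (16.7% from fat, 12.4% from sugar), all for 15 weeks. The growth protocol lists both genotypes as homozygous for the floxed gene and Cre-positive, and the diet tag contradicts the sample titles for CB1KO_SD and WT_HFHS, so both were taken from the titles. The labels name neither the muscle dissected nor the mice, if any, given the compound S961, which the treatment protocol mentions.

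Myokines are proteins that muscle fibres or their neighbours secrete, many of them in greater amount after contraction or under metabolic or mitochondrial stress. In stressed cells the transcription factor ATF4, the effector of the integrated stress response, activates Fgf21 and Gdf15, whose products are hormones of fasting metabolism and of appetite. Low oxygen acts through hypoxia-inducible factors on Vegfa and Apln, and the coactivator PGC-1alpha is known to raise Fndc5, Metrnl and Vegfa in muscle.

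The promoters of Fgf21, Gdf15 and Apln are shown because these genes are among the known stress and hypoxia targets. A further reason for Gdf15 and Apln was that their mean signals were highest in CB1KO_HFHS muscle. The Metrnl mean was highest there too, and Vegfa is also a hypoxia target, but their promoters are not shown. Each sequence is the 250 bases before the first annotated start in RefSeq (GRCm38.p6), read 5′ to 3′ on the gene's strand, with matches to the searched motifs in capitals. The windows are chr7:45615491-45615740 for Fgf21, chr8:70632457-70632706 for Gdf15 and chrX:48034854-48035103 for Apln, all on the minus strand.
Fgf21: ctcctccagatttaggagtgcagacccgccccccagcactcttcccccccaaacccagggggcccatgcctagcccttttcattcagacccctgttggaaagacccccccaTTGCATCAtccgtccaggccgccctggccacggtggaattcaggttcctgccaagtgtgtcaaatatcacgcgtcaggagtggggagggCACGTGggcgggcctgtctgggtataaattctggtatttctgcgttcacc
Gdf15: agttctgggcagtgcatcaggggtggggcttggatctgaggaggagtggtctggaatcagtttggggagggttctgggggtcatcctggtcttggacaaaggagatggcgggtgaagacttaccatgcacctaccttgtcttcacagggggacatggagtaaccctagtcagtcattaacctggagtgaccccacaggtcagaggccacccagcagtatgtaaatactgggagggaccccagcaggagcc
Apln: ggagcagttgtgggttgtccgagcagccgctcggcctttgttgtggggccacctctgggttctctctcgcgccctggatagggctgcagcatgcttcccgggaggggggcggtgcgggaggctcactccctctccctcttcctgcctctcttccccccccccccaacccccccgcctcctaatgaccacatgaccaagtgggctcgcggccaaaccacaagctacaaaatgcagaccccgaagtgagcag
The motifs searched on both strands were TGATGNAA, a core of the element bound by C/EBP and ATF4 dimers, ACGTG, the core of the hypoxia-inducible factor site, and AAGGTCA, the half-site of estrogen-related receptors. The Fgf21 window held TGATGNAA once, on the opposite strand, and the palindrome CACGTG, which contains ACGTG on both strands. Neither the Gdf15 nor the Apln window held any of the 3 motifs, although the window of a second Gdf15 start held ACGTG. Among 32851 mouse promoters of the same length, 3.452% held TGATGNAA, 16.57% ACGTG and 4.079% AAGGTCA. Promoters were found for 7 of the 8 genes, and none of those windows held AAGGTCA. TGATGNAA was in no window but that of Fgf21. Outside Fgf21 and Gdf15, ACGTG occurred in at least 1 window of Fndc5, Vegfa and Bdnf. Gdf15, Vegfa and Bdnf each had more than 1 window, some without ACGTG, so a hit per gene cannot be set against the rate per promoter.

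All values below are log2 processed signals relative to the 75th percentile of the same array, so that 0 is the signal at that percentile and 1 unit is a factor of 2. Signals of different probes are not on a common scale. On each array at least 56.7% of the spots exceeded this call, with none saturated. The 12 markers of skeletal muscle fibres, such as Ckm, Acta1 and Ttn, were well above background on all 16 arrays. The SD arrays filled 1 slide and the HFHS arrays another, so diet and slide effects cannot be told apart. On both slides CB1KO arrays occupied 1 row and WT arrays the other, so genotype and slide row cannot be told apart either. Replicate numbers are the slide columns. A pair of libraries stood apart in the spread of their log2 signal, with an SD of 3.97 for CB1KO_HFHS replicate 1 and 2.89 for CB1KO_SD replicate 2, against 3.14 to 3.69 on the others. The single Cnr1 probe, whose position relative to the deleted part is not known and which therefore checks nothing, differed between CB1KO and WT by -0.14 ± 0.46 (SE) on HFHS and by -0.24 ± 0.46 on SD (adjusted p = 0.923 and 0.932, limma).

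**Figure D1:**
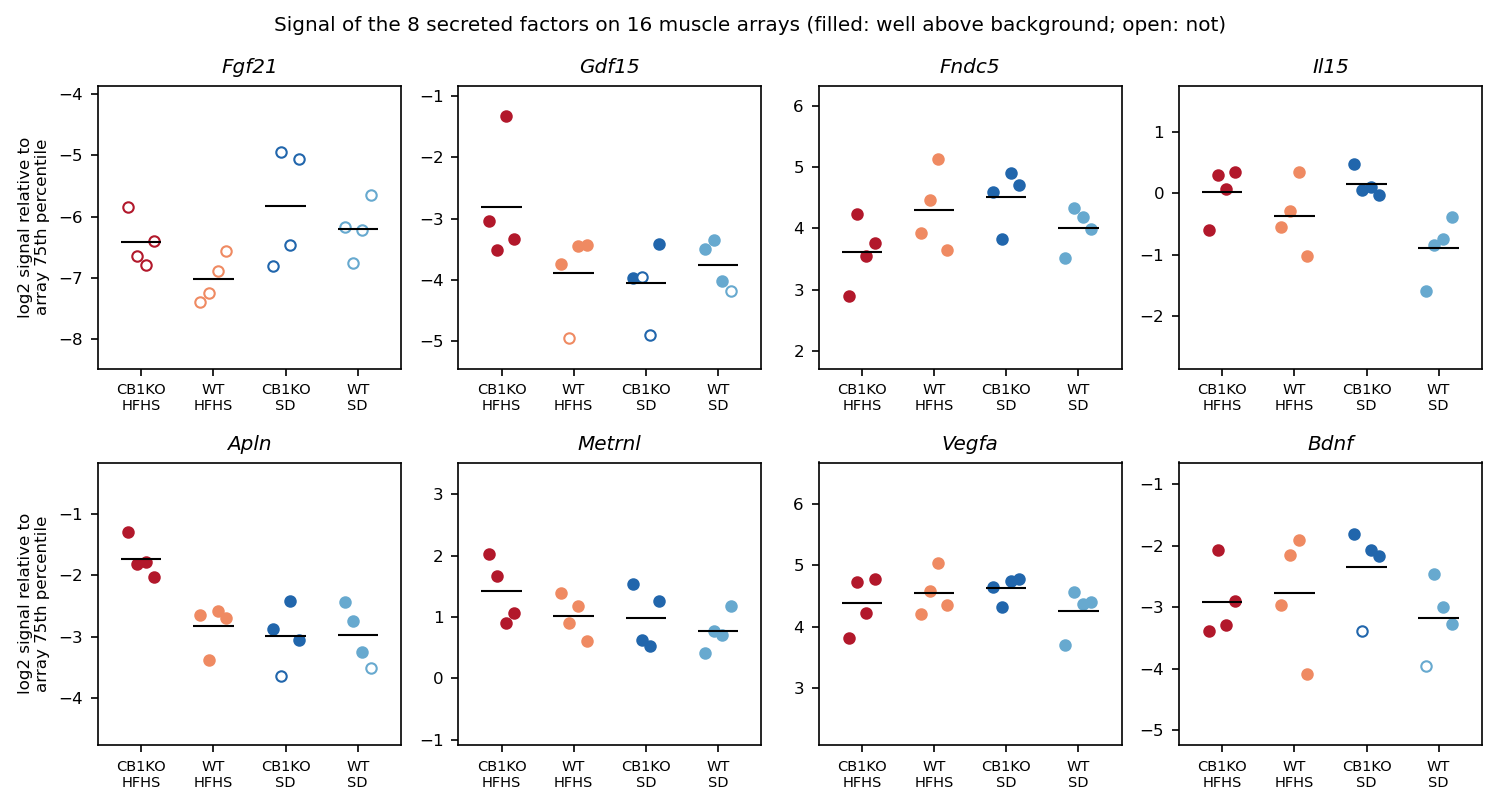
Signal of the brightest probe of each of the 8 secreted factors on every array (log2 relative to the array's 75th percentile). Each point is 1 of 4 arrays per group, filled where the probe was well above background and open where it was not, and bars are group means. Fgf21 was open on all 16 arrays, the 4 CB1KO_HFHS points of Apln lay above those of the other groups, and the 4 CB1KO_SD points of Il15 lay above those of WT_SD.

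None of the 7 factors passed an adjusted p of 0.05 in any of the 6 contrasts tested with limma over all 28972 genes. Groups separated completely for Apln in CB1KO_HFHS muscle, against both WT_HFHS and CB1KO_SD, and for Il15 in CB1KO_SD against WT_SD. For CB1KO against WT averaged over both diets, 0 of 7 factors passed, against 0.763% of all genes, and 2 (Il15 and Apln) had an unadjusted p under 0.05, as did 15.0% of all genes. On HFHS 0 of 7 passed, against 0.249% of all genes, with 2 (Gdf15 and Apln) under an unadjusted 0.05, against 9.40%. On SD 0 of 7 passed, against 0.00345%, with 1 (Il15) under an unadjusted 0.05, against 9.03%. For HFHS against SD in CB1KO muscle 0 of 7 passed, against 0.0276%, with 3 (Gdf15, Fndc5 and Apln) under an unadjusted 0.05, against 9.59%. In WT muscle 0 of 7 passed, against 0%, and 0 were under an unadjusted 0.05, against 6.06%. In the genotype-by-diet interaction 0 of 7 passed, against 0%, with 2 (Fndc5 and Apln) under an unadjusted 0.05, against 3.63%. In each of CB1KO against WT on HFHS, CB1KO against WT on SD and HFHS against SD in CB1KO, 1 of 7 factors had groups that did not overlap, against 10.1%, 4.19% and 3.73% of all genes. For HFHS against SD in WT 0 of 7 did, against 5.39%. The median log2 difference of CB1KO against WT over the 7 factors was 0.39 on HFHS and 0.36 on SD, beside -0.14 and -0.12 over all genes tested, so the signals of most genes lay slightly lower in CB1KO on this scale.

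**Figure D2:**
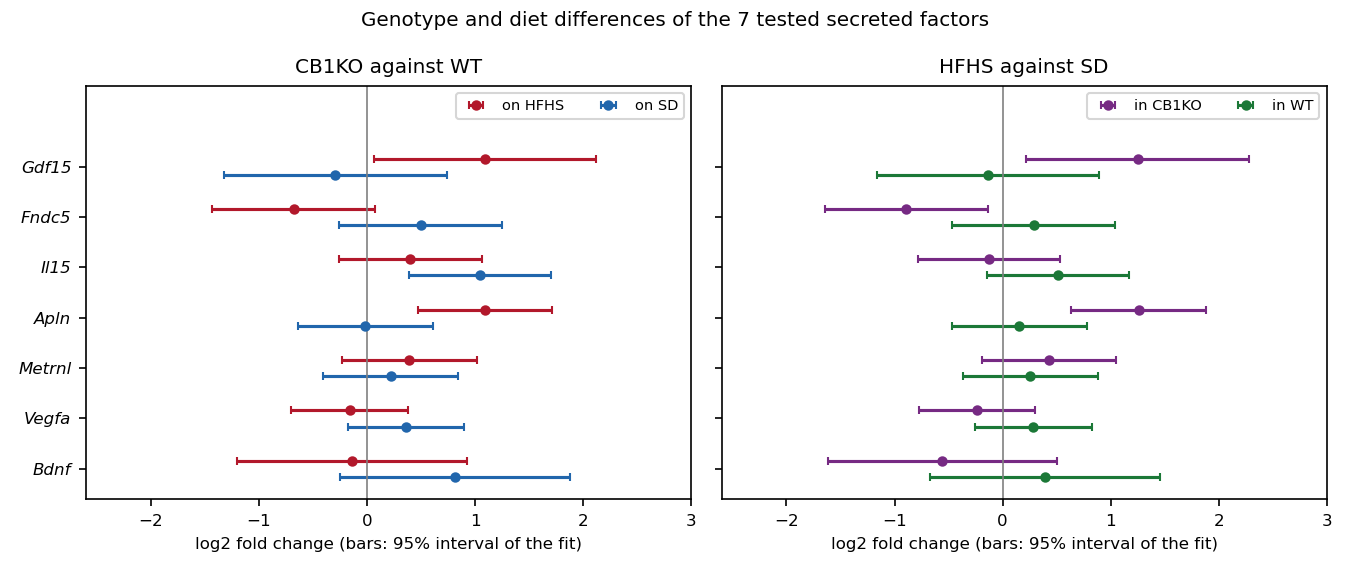
Log2 fold changes of the 7 tested factors, CB1KO against WT on each diet (left) and HFHS against SD within each genotype (right). Points are limma estimates from 4 against 4 arrays and bars their 95% intervals before any adjustment over genes. Only the intervals of Gdf15 and Apln on HFHS, of Il15 on SD, and of Gdf15, Fndc5 and Apln in CB1KO leave out 0.

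Fgf21 encodes a hormone that signals through FGFR1 and its co-receptor beta-Klotho. Its probe was well above background on none of the 16 arrays. Its measured signals ran from -6.79 to -5.84 in CB1KO_HFHS, -7.39 to -6.56 in WT_HFHS, -6.81 to -4.95 in CB1KO_SD and -6.75 to -5.64 in WT_SD. These values lie in the range where the array gives no order, and no fold change is given. Klb, which encodes beta-Klotho, was well above background on 7 of the 16 arrays.

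Gdf15 encodes a stress-induced cytokine that acts on the GFRAL-RET receptor in the hindbrain. Its signal was -3.05, -3.51, -1.33 and -3.32 in CB1KO_HFHS muscle, against -3.75, -4.95, -3.45 and -3.42 in WT_HFHS muscle. It was -3.96, -3.94, -4.90 and -3.41 in CB1KO_SD muscle, against -3.50, -3.35, -4.02 and -4.18 in WT_SD muscle. One CB1KO_HFHS array, replicate 3, lay far above the others, and the CB1KO_HFHS and WT_HFHS values overlapped. The probe was well above background on 4 CB1KO_HFHS, 3 WT_HFHS, 2 CB1KO_SD and 3 WT_SD arrays.

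On HFHS, Gdf15 had a median of -3.18 in CB1KO and -3.60 in WT, and the difference of means, 1.09 ± 0.48 (SE), did not pass (adjusted p = 0.495, limma). The two-sided exact permutation test of these 4 against 4 arrays gave p = 0.0857. Without CB1KO_HFHS replicate 3 the difference was 0.60, and without WT_HFHS replicate 2, which was not well above background, it was 0.74. On SD the difference was -0.29 ± 0.48 (adjusted p = 0.915, limma). Within CB1KO muscle, HFHS lay 1.25 ± 0.48 above SD (adjusted p = 0.410, limma), with an exact permutation p of 0.0571. In WT muscle the diet difference was -0.13 ± 0.48, with a 95% interval from -1.16 to 0.90. The order of the group means was CB1KO_HFHS, WT_SD, WT_HFHS and CB1KO_SD, and the last 3, from -3.76 to -4.05, lay within their own SDs of 0.40 to 0.72.

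Apln encodes apelin, a peptide made by endothelial cells and muscle that binds the receptor APJ (Aplnr). Its signal was -1.30, -1.82, -1.79 and -2.03 in CB1KO_HFHS muscle, against -2.65, -3.38, -2.58 and -2.70 in WT_HFHS muscle. It was -2.88, -3.64, -2.42 and -3.05 in CB1KO_SD muscle, against -2.43, -2.75, -3.25 and -3.50 in WT_SD muscle. All 4 CB1KO_HFHS arrays lay above all 12 others, and the other 3 groups overlapped. The probe was well above background on all HFHS arrays and on 3 of 4 arrays in each SD group.

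Apln averaged -1.73 ± 0.31 in CB1KO_HFHS and -2.83 ± 0.37 in WT_HFHS (SD, n = 4 each). The difference of 1.09 ± 0.29 (SE), or 2.13-fold, did not pass (adjusted p = 0.186, limma). The exact permutation test of the 4 against 4 arrays gave p = 0.0286, the smallest it allows. The groups did not overlap, as was the case in this contrast and direction for 3.16% of all genes. Against CB1KO_SD, which averaged -3.00 ± 0.50, CB1KO_HFHS lay 1.26 ± 0.29 (SE) or 2.40-fold higher (adjusted p = 0.148, limma), and the exact permutation p was again 0.0286. Complete separation upward in this contrast was found for 2.48% of genes. These 2 contrasts share the CB1KO_HFHS arrays and are not independent.

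On SD the Apln difference between genotypes was -0.01 ± 0.29 (95% interval -0.64 to 0.61), and in WT the diet difference was 0.16 ± 0.29 (-0.47 to 0.78). The difference between the genotype effects on the 2 diets was 1.11 ± 0.41 (SE), with an unadjusted p of 0.0177 and an adjusted p of 1.00 (limma). Across arrays the Apln signal moved with the spread of the array's log2 signal, with a Pearson r of 0.606 over 16 arrays, a description in which the arrays share their groups. Without both arrays of unusual spread the HFHS difference was 0.95, and with the spread as a covariate it was 1.01 (adjusted p = 0.156 and 0.0546, limma). The 10 endothelial markers were well above background on all arrays, and their log2 summed level ran from 6.03 to 6.28 in CB1KO_HFHS, against 6.26 to 6.51 in WT_HFHS.

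Vegfa encodes the main angiogenic growth factor of muscle. The brightest of its 2 probes, printed at 2 spots, read 3.81, 4.73, 4.22 and 4.77 in CB1KO_HFHS muscle, against 4.21, 4.57, 5.04 and 4.35 in WT_HFHS muscle. It read 4.64, 4.32, 4.75 and 4.77 in CB1KO_SD muscle, against 3.70, 4.57, 4.36 and 4.41 in WT_SD muscle. The groups overlapped throughout. The genotype difference was -0.16 ± 0.25 (SE) on HFHS and 0.36 ± 0.25 on SD (adjusted p = 0.841 and 0.746, limma), and its 95% interval on HFHS, from -0.70 to 0.38, leaves out a change of 2-fold in either direction. The second probe, for another transcript of the gene, gave -0.34 ± 0.27 and 0.27 ± 0.27 (SE) in the same contrasts.

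Fndc5 encodes the membrane protein from which irisin is cleaved. Its signal was 2.90, 4.24, 3.55 and 3.77 in CB1KO_HFHS muscle, against 3.93, 4.46, 5.14 and 3.65 in WT_HFHS muscle. It was 4.59, 3.83, 4.90 and 4.71 in CB1KO_SD muscle, against 3.52, 4.33, 4.19 and 3.99 in WT_SD muscle. CB1KO_HFHS held the lowest array and WT_HFHS the highest, and every pair of groups overlapped. CB1KO_HFHS lay -0.68 ± 0.35 (SE) from WT_HFHS and -0.89 ± 0.35 from CB1KO_SD, neither of which passed (adjusted p = 0.586 and 0.423, limma). The exact permutation p was 0.171 for the genotype difference and 0.0571 for the diet difference. On SD the genotype difference was 0.50 ± 0.35, and the interaction was -1.18 ± 0.50 (SE), with an unadjusted p of 0.0326 and an adjusted p of 1.00 (limma).

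Il15 encodes a cytokine that supports natural killer and T cells and is abundant as a transcript in muscle. Its signal was -0.60, 0.30, 0.06 and 0.34 in CB1KO_HFHS muscle, against -0.55, -0.29, 0.35 and -1.02 in WT_HFHS muscle. It was 0.48, 0.06, 0.10 and -0.03 in CB1KO_SD muscle, against -1.59, -0.85, -0.74 and -0.40 in WT_SD muscle. The SD groups did not overlap and the HFHS groups did. CB1KO_SD averaged 0.15 ± 0.22 and WT_SD -0.89 ± 0.50 (SD, n = 4 each), a difference of 1.04 ± 0.31 (SE) or 2.06-fold that did not pass (adjusted p = 0.323, limma). The exact permutation p was 0.0286, and 1.03% of all genes separated upward in this contrast. On HFHS the difference was 0.40 ± 0.31, and averaged over diets it was 0.72 ± 0.22 (adjusted p = 0.714 and 0.138, limma).

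The markers of slow-twitch fibres separated the same 2 SD groups. All 10 slow-twitch markers were well above background on all 16 arrays, and their log2 summed level ran from 8.23 to 9.60 in CB1KO_SD, against 4.35 to 7.84 in WT_SD. On HFHS it ran from 5.23 to 9.30 in CB1KO and from 4.96 to 9.86 in WT. None of the 10 markers passed the limma test on SD, where their median difference was 2.55. Over the 16 arrays Il15 followed this level with a Pearson r of 0.837 and a Spearman rho of 0.776 (permutation p = 4e-05 and 0.00072, adjusted 0.0014 and 0.0101 over 70 relations of 7 factors with 10 marker lists). The r was 0.708 without the 2 arrays farthest from the median level, 0.772 among HFHS and 0.918 among SD arrays. The part of fibre composition in the Il15 difference was not tested. In whole tissue, fewer cells of a type and less RNA per cell cannot be told apart.

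**Figure D3:**
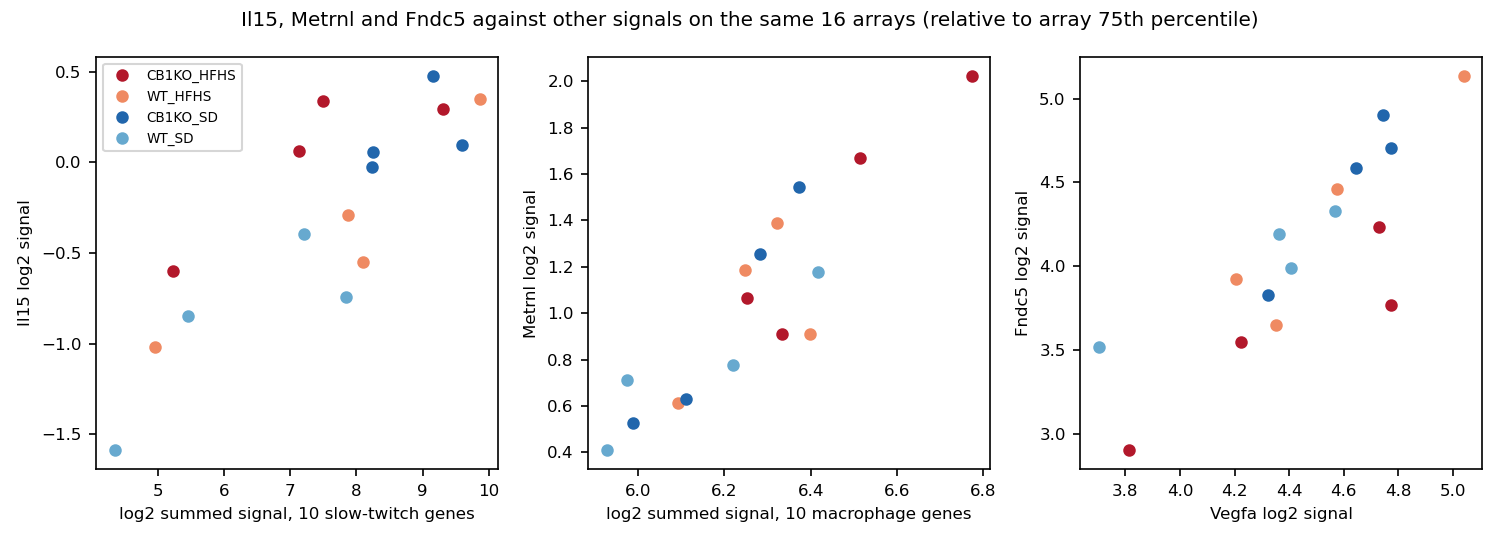
Signal of Il15 against the log2 summed level of 10 slow-twitch fibre markers (left), of Metrnl against that of 10 macrophage markers (middle) and of Fndc5 against the signal of Vegfa (right), all relative to the array's 75th percentile, with 1 point for each of 16 arrays, coloured by group. The Pearson r was 0.837 for Il15, 0.900 for Metrnl and 0.835 for Fndc5.

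Metrnl encodes meteorin-like, a secreted protein made by exercised muscle, by adipose tissue and by macrophages. Its first probe read 2.02, 1.67, 0.91 and 1.07 in CB1KO_HFHS muscle, against 1.39, 0.91, 1.18 and 0.61 in WT_HFHS muscle. It read 1.54, 0.63, 0.53 and 1.25 in CB1KO_SD muscle, against 0.41, 0.78, 0.71 and 1.18 in WT_SD muscle. The groups overlapped in every contrast. The genotype difference was 0.39 ± 0.29 (SE) on HFHS and 0.22 ± 0.29 on SD (adjusted p = 0.705 and 0.891, limma), with upper 95% bounds of 1.02 and 0.84. A second probe was well above background on no array.

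Metrnl followed the macrophage markers across arrays, with an r of 0.900 and a rho of 0.835 (permutation p = 1e-05, the smallest that 100000 resamples can give, and 0.00014, adjusted 0.0007 and 0.0056). The r was 0.810 without the 2 farthest arrays, 0.876 among HFHS and 0.891 among SD arrays. It also followed the fibroblast markers (r = 0.802, rho = 0.829, permutation p = 0.00017 and 0.00016, adjusted 0.00397 and 0.0056, r = 0.658 without the 2 farthest arrays, 0.676 among HFHS and 0.872 among SD arrays). All 10 macrophage markers were well above background on at least 1 array of each group. As in the other lists, signals were summed before the log2, so the brightest markers weigh most in the level. Itgam averaged 5.59 and Csf1r 3.84 over the arrays, and the other macrophage markers 2.13 or less. The log2 summed level of the 10 ran from 6.25 to 6.77 in CB1KO_HFHS, against 6.09 to 6.40 in WT_HFHS. On SD it ran from 5.99 to 6.37 in CB1KO_SD, against 5.93 to 6.42 in WT_SD. One by one, 9 of 10 lay above 0 for CB1KO against WT on HFHS, with a median of 0.69 beside -0.14 over all genes. None of them passed (limma), and 3 had an unadjusted p under 0.05, against 9.40% of all genes. On SD 6 of 10 lay above 0, with a median of 0.06 beside -0.12.

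Bdnf encodes brain-derived neurotrophic factor, a ligand of TrkB (Ntrk2) and, as its precursor, of the p75 neurotrophin receptor (Ngfr). Its signal was -3.39, -2.07, -3.29 and -2.90 in CB1KO_HFHS muscle, against -2.96, -2.15, -1.91 and -4.09 in WT_HFHS muscle. It was -1.80, -3.38, -2.07 and -2.16 in CB1KO_SD muscle, against -3.95, -2.46, -2.99 and -3.28 in WT_SD muscle. CB1KO_SD had 3 of the 6 highest arrays, but all groups overlapped, and the probe was well above background on 14 of 16 arrays. The genotype difference was -0.14 ± 0.50 (SE) on HFHS and 0.82 ± 0.50 on SD (adjusted p = 0.933 and 0.689, limma), with 95% intervals from -1.20 to 0.92 and from -0.25 to 1.88.

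Of 21 pairs among the 7 factors, 5 had a correlation with an adjusted permutation p under 0.05. Fndc5 followed Vegfa (r = 0.835, rho = 0.809, permutation p = 7e-05 and 0.00032, adjusted 0.00136 and 0.00224) and Bdnf (r = 0.831, rho = 0.888, permutation p = 0.00013 and 4e-05, adjusted 0.00136 and 0.00084). Without the 2 arrays farthest in Fndc5 these r values were 0.710 and 0.877. They were 0.861 and 0.796 among HFHS arrays and 0.916 and 0.952 among SD arrays. Vegfa and Bdnf (r = 0.785), Il15 and Vegfa (r = 0.722) and Il15 and Bdnf (r = 0.684) made up the other pairs, while Fndc5 and Il15 did not pass (r = 0.479, rho = 0.497, permutation p = 0.0605 and 0.0518, adjusted 0.161 and 0.155). The 3 passing pairs had rho values of 0.806, 0.674 and 0.721 and permutation p values for r of 0.00021, 0.00152 and 0.00357 (adjusted 0.00147, 0.00798 and 0.0150). Without the 2 farthest arrays their r values were 0.750, 0.593 and 0.456, among HFHS arrays 0.693, 0.697 and 0.718, and among SD arrays 0.900, 0.780 and 0.707. Fndc5, Vegfa and Bdnf, like Il15, followed the slow-twitch markers, with r values of 0.739, 0.743 and 0.779 (rho 0.779, 0.671 and 0.806, permutation p of r 0.00099, 0.00088 and 0.00043, adjusted 0.0116, 0.0116 and 0.00752). The adjusted p of rho was 0.0101 for Fndc5 and 0.00863 for Bdnf, and for Vegfa, at 0.0645, it did not pass. Without the 2 farthest arrays these r values were 0.718, 0.673 and 0.624, among HFHS arrays 0.835, 0.753 and 0.909, and among SD arrays 0.705, 0.737 and 0.656. Gdf15, Apln and Metrnl belonged to no passing pair. The r of Gdf15 and Apln was 0.584 (rho 0.600, permutation p = 0.0162 and 0.0158, adjusted 0.0567 and 0.0553), with 0.690 among HFHS and -0.031 among SD arrays. With group means removed, the r of Gdf15 and Apln was 0.206, and those of the 5 passing pairs ran from 0.707 to 0.901. The permutations, here and for the marker lists, ignored the groups, so their p values also reflect differences between groups.

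The genes most like each factor were sought among 12674 other named genes well above background on all 16 arrays. They were ranked by Pearson r over those arrays, as a description in which the arrays share their groups. The highest of so many r values is large by chance too, and no chance level was computed. Fndc5 was closest to Got1 (r = 0.976), the cytosolic aspartate aminotransferase, Phyh (0.972), a peroxisomal hydroxylase, and Acss1 (0.956), the mitochondrial acetyl-CoA synthetase. Il15 was closest to Dusp18 (0.937), a phosphatase, Car2 (0.934), carbonic anhydrase 2, and Tnni1 (0.912), the slow skeletal troponin I. Vegfa was closest to Inpp5j (0.912), an inositol phosphatase, Cyc1 (0.911), cytochrome c1 of the respiratory chain, and Bfsp2 (0.904). Bdnf was closest to Togaram2 (0.940), Ppara (0.911), a fatty acid-sensing nuclear receptor, and Dgat2 (0.909), an enzyme of triglyceride synthesis. Metrnl was closest to Dbn1 (0.944), an actin-binding protein, Emilin2 (0.942), a matrix glycoprotein, and Adgrd1 (0.918), an adhesion receptor. The closest genes reached lower values for Gdf15, with Cd2 (0.875), a lymphocyte adhesion molecule, Kcnu1 (0.831) and Tec (0.816), and for Apln, with 9330151L19Rik (0.848), Snx11 (0.847) and Glt8d1 (0.846). The Gdf15 values include CB1KO_HFHS replicate 3, which lay far above the others, and were not computed without it. With the summed level of the T and B lymphocyte markers Gdf15 had an r of -0.104 and a rho of -0.465.

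Of 18 receptor genes 17 were tested. For CB1KO against WT on HFHS 5 had an unadjusted p under 0.05 (limma), against 9.40% of all genes. The median difference of the 17 was 0.09, beside -0.14 over all genes. In this contrast 1 passed as higher and 0 as lower, against 0.249% of all genes called in either direction. That gene was Ngfr, the p75 neurotrophin receptor, whose signal was -0.08, 0.00, 0.39 and 0.66 in CB1KO_HFHS muscle, against -1.70, -1.45, -1.21 and -1.28 in WT_HFHS muscle. It was -0.22, -0.15, -1.01 and -0.77 in CB1KO_SD muscle, against -1.59, -1.45, -0.68 and -1.39 in WT_SD muscle. The genotypes did not overlap on HFHS, as was the case in either direction for 10.1% of all genes, and overlapped on SD. Ngfr rose by 1.65 ± 0.25 (SE) on HFHS and by 1.20 ± 0.18 averaged over diets (adjusted p = 0.0149 and 0.00920, limma). On SD the difference of 0.74 ± 0.25 did not pass (adjusted p = 0.386), nor did the interaction of 0.91 ± 0.35 (adjusted p = 1.00, limma).

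Schwann cells express Ngfr strongly, and all 8 Schwann cell and nerve markers were well above background on all arrays. Their log2 summed level ran from 4.22 to 4.83 in CB1KO_HFHS, against 4.68 to 5.07 in WT_HFHS, and their median difference was -0.26. The HFHS call of Ngfr was lost when WT_HFHS replicate 1 or 2, or CB1KO_HFHS replicate 3 or 4, was left out, with values from 1.51 to 1.64, and with the slide column as a block (adjusted p = 0.0551, limma), while the averaged call held in all 16 fits that left out 1 array and with that block (0.0365). Next by p on HFHS were Il2rb, a receptor chain for Il15, and Kit, neither of which passed (limma). The Il2rb probe was well above background on 4 CB1KO_HFHS, 1 WT_HFHS, 1 CB1KO_SD and 0 WT_SD arrays, and no fold change is given for it. Kit differed by 0.60 ± 0.19 (adjusted p = 0.289, limma). Aplnr, the apelin receptor, was 0.80 ± 0.31 (SE) higher on HFHS than on SD in CB1KO and 0.66 ± 0.31 higher in WT (adjusted p = 0.420 and 0.827, limma).

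The integrated stress response, which controls Fgf21 and Gdf15, showed 2 called genes that lay in opposite directions. Of 23 listed genes 22 were tested. On HFHS 1 passed as higher in CB1KO and 0 as lower, against 0.249% of all genes called in either direction, with a median of 0.06 beside -0.14 over all genes. Averaged over diets 0 passed as higher and 1 as lower, against 0.763% of all genes, with a median of -0.01 beside -0.13. An unadjusted p under 0.05 (limma) was found for 3 on HFHS, against 9.40% of all genes. It was found for 6 averaged over diets, against 15.0%, and for 5 on SD, against 9.03%. Psat1, an enzyme of serine synthesis and an ATF4 target, read 0.83, 0.78, 2.17 and 1.84 in CB1KO_HFHS muscle, against -0.16, -0.87, -0.95 and -0.86 in WT_HFHS muscle. It read -0.71, -1.68, -1.04 and 0.01 in CB1KO_SD muscle, against -1.27, -1.05, -0.75 and -0.76 in WT_SD muscle. Only CB1KO_HFHS stood apart from the other groups. Complete separation upward was found for 3.16% of all genes against WT_HFHS and for 2.48% against CB1KO_SD. Psat1 rose by 2.12 ± 0.37 (SE) on HFHS (adjusted p = 0.0269, limma). As the mean of the gene's probes the value was 1.24 (adjusted p = 0.0903), and the call was also lost under quantile normalization (0.0836), with the slide column as a block (0.0504), in the authors' rescaled z-scores (0.0778) and in 6 of 16 fits that left out 1 array, all of them HFHS arrays.

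Chac1, a glutathione-degrading enzyme that ATF4 also activates, read 6.24, 6.41, 6.01 and 6.90 in CB1KO_HFHS muscle, against 6.91, 7.04, 6.97 and 7.33 in WT_HFHS muscle. It read 6.62, 6.46, 7.18 and 6.34 in CB1KO_SD muscle, against 7.39, 7.42, 7.90 and 7.85 in WT_SD muscle. The genotypes did not overlap on either diet, as was the case in either direction for 10.1% of all genes on HFHS and 4.19% on SD. On HFHS the separation was marginal, with the highest CB1KO array at 6.900 and the lowest WT array at 6.909. Chac1 fell by 0.83 ± 0.16 (SE) averaged over diets (adjusted p = 0.0291, limma), and the call was lost in 10 of 16 fits that left out 1 array, under quantile normalization (adjusted p = 0.0510), with the slide column as a block (0.0675) and in the authors' rescaled z-scores (0.131). Atf3, a stress-induced transcription factor, was 3.10 ± 0.65 higher in CB1KO on SD and did not pass (adjusted p = 0.203, limma).

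**Figure D4:**
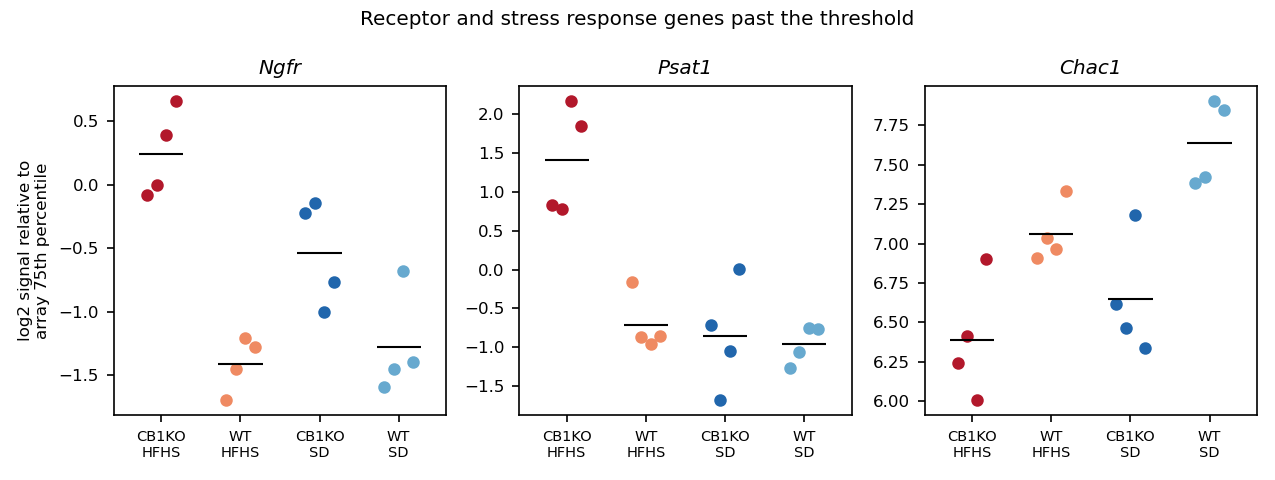
Signal of the 3 receptor and stress response genes past an adjusted p of 0.05 on every array (log2 relative to the array's 75th percentile), 4 arrays per group, with bars at the group means. CB1KO_HFHS lay above WT_HFHS for Ngfr and Psat1, and CB1KO below WT on both diets for Chac1.

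The other regulators and partners gave no call in any of the 6 contrasts. Of the 16 hypoxia response genes tested, 0 passed on HFHS (limma), 3 had an unadjusted p under 0.05, against 9.40% of all genes, and 4 lay above 0, against 31.4%, with a median of -0.25 beside -0.14 over all genes. Smallest by p were P4ha1, a collagen prolyl hydroxylase (-0.47 ± 0.20), and the mitophagy gene Bnip3 (-0.35 ± 0.16), both with SE and unadjusted p values under 0.05. Of the 10 PGC-1 and PPAR regulators tested, 0 passed on HFHS (limma) and 1 had an unadjusted p under 0.05, against the same 9.40%, with a median of -0.19. Among them Esrra, an estrogen-related receptor that works with PGC-1alpha, differed by -0.56 ± 0.17 (adjusted p = 0.268, limma). The 7 processing enzymes, among them Furin and Adam10, and the 11 tested relatives of the factors, among them Vegfb and Ntf3, had medians of 0.07 and -0.16 on HFHS. Neither list had a call (limma), and 0 and 2 of their genes had an unadjusted p under 0.05, again beside 9.40%.

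Other muscle-secreted factors also gave 0 calls among 21 tested, with 8 at an unadjusted p under 0.05 for CB1KO against WT averaged over diets, beside 15.0% of all genes. Nearest to the threshold were Ostn, which encodes musclin (-1.47 ± 0.35), Igf2 (1.33 ± 0.34) and the chemokine Cxcl12 (-0.34 ± 0.11), with adjusted p values of 0.0729, 0.0898 and 0.161 (limma).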

How the data were processed

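Skeletal muscle RNA of 16 mice was measured on 1-colour Agilent arrays, 4 per group, grouped by sample title. The deposited scanner files hold spot intensities. Per the file headers, Feature Extraction 11.5.1.1 produced them and subtracted background within each array. The deposited table of the series gives each spot a score. Set against the scanner files, it was a z-score of log2 intensity over each array, to within 0.0050.

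Processed intensities were taken to log2 and set relative to the 75th percentile of their array. Outlier spots were left out and repeated spots averaged. The filter kept probes called well above background on 4 or more arrays, and the brightest probe stood for its gene. Symbols came from RefSeq through probe accessions (28026 of 55681 probes). A model with a mean for every group, over the 16 arrays, used limma 3.58.1 in R 4.3.3 (lmFit, eBayes), with two-sided Benjamini-Hochberg adjustment over 28972 genes. Exact permutation tests compared 4 against 4 arrays for 28 factor contrasts. Correlations used 100000 permutations. On simulated data the fit recovered 36% of 2-fold and 68% of 4-fold changes for CB1KO against WT on HFHS, with 28890 genes in the step. The simulated noise was independent between genes and arrays, and few genes were changed, equally on both diets. These shares need not hold for the measured arrays. Precision is limited by the number of arrays.

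The factors, lists and tests were chosen with earlier results of these data known. The genes named were all 8 factors, genes of each list past the threshold, and the 3 genes most like each factor. From each list, up to 3 genes with the smallest p in a contrast could also be named, passing or not. Klb, Cnr1 and some cell type markers were named besides. Alternatives covered the background correction, normalization, filter, probe choice, variance model, covariates, blocks and each array left out.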

Additional observations from a re-analysis of the deposited data

Results flagged for a closer look

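Of 32 combinations of a factor's tested probe and a group, 1 held an array set apart from the other 3. The Apln signal of WT_HFHS replicate 2 was -3.38 (log2 relative to the array's 75th percentile), while the other WT_HFHS arrays lay between -2.70 and -2.58. The gap took up 0.856 of the group's range, above Dixon's 95% critical value for 4 samples. By chance about 1 in 20 groups is marked in this way. Without that array the Apln difference of CB1KO against WT on HFHS was 0.91 rather than 1.09 (adjusted p = 0.507 and 0.186, limma).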

How the results depend on the processing

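Of 451 values of the 7 factors under other settings, 427 kept their direction and their side of the threshold, and of 672 values with 1 array left out, 655 did; the cause of the others was not tested. With array weights 4 values passed: Il15 (0.76, adjusted p = 0.0221) and Apln (0.74, 0.0306) averaged over diets, and Gdf15 (1.80, 0.0414) and Apln (1.20, 0.00691) on HFHS (limma). Under these weights 2241 of 28972 genes passed averaged over diets and 2328 on HFHS, against 221 and 72 without them. In CB1KO_HFHS the weights ran from 0.28 for replicate 1 to 2.19 for replicate 3, the highest Gdf15 array. The values that changed sign were small. Fndc5 averaged over diets was 0.035 under normexp with quantile normalization, 0.043 under array weights, and 0.14 when both arrays of unusual spread were left out. Apln on SD was 0.028, 0.065, 0.026, 0.28 and 0.20 under normexp, quantile normalization, rescaled z-scores, array weights and without both arrays. Gdf15 for HFHS against SD in WT was 0.051, 0.12 and 0.17 under normexp, quantile normalization and z-scores. Il15 for HFHS against SD in CB1KO was 0.052, 0.030 and 0.050 under z-scores, array weights and without both arrays. Bdnf on HFHS was 0.035 under z-scores and 0.022 without both arrays, and Vegfa on HFHS 0.032 without both. The Metrnl interaction was -0.066 under array weights, -0.15 without both arrays, and Apln for HFHS against SD in WT was -0.0050 with the spread of log2 signal as a covariate. With 1 array left out, values that crossed 0 ran from -0.20 to 0.050 (Fndc5, averaged), -0.21 to 0.20 (Apln, SD), -0.29 to 0.032 (Vegfa, HFHS), -0.57 to 0.15 (Bdnf, HFHS), -0.029 to 0.36 (Metrnl, interaction), -0.29 to 0.22 (Gdf15, diet in WT), -0.019 to 0.34 (Apln, diet in WT) and -0.23 to 0.081 (Il15, diet in CB1KO).

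Counts of genes past the threshold moved more. For CB1KO against WT averaged over diets, 221 genes became 1734 with the spread covariate, 2241 with array weights, 870 without both arrays, 350 with trended robust variances, 133 with no filter, 388 under normexp, 369 under quantile normalization and 59 with the replicate block, and ran from 59 to 610 with 1 array left out. On HFHS, 72 became 345, 2328, 190, 110, 118 and 36 with the covariate, weights, without both arrays, with trended variances, under normexp and with the replicate block, and ran from 15 to 134. On SD, 1 became 148, 96, 227, 7, 4, 6, 21, 23 and 25 with the covariate, weights, without both arrays, with a filter on all arrays, the mean of probes, trended variances, normexp, quantile normalization and z-scores, and ran from 0 to 12. For HFHS against SD in CB1KO, 8 became 15, 142, 23, 14, 3, 1, 4, 2, 2, 0 and 3 with the covariate, weights, without both arrays, with a filter on all arrays, the mean of probes, trended variances, no filter, normexp, quantile normalization, the replicate block and z-scores, and ran from 0 to 28. In WT, 0 became 235 with weights and 1 without both arrays, and ran from 0 to 1. The interaction count of 0 became 10 with weights, 10 without both arrays and 1 under normexp, and ran from 0 to 11. Replicate numbers, which are also slide columns, showed no clear pairing of the samples. Deviations of same-numbered arrays correlated with a mean r of -0.014, above 0.1 in 8 of 24 pairs, and 5 of 16 arrays correlated best with their own number. The r ran from -0.75 to 0.61 for same-numbered pairs and from -0.70 to 0.66 for others, too wide to exclude a weak pairing. With the replicate block Chac1 averaged over diets (adjusted p = 0.0675), Ngfr on HFHS (0.0551) and Psat1 on HFHS (0.0504) did not pass.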
